A study of Mus musculus with 24 samples.

Results

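Medium spiny neurons are the GABA-releasing projection neurons that make up most of the cells of the striatum, of which the nucleus accumbens is the ventral part. A set of 33 genes that mark spiny neurons of both the direct and the indirect pathway was followed across the deposited table of 37991 genes. The genes were taken by their mouse symbols from a list of markers common to the 2 kinds of spiny neuron. All 33 symbols matched 1 Ensembl gene each. All 33 also passed the filter on low counts in both experiments of the series, in which 15249 and 17597 genes were tested.

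RNA was sequenced from nucleus accumbens of C57BL/6J mice in 24 libraries, 3 in each of 8 groups. The wild-type experiment held stressed females, control females, stressed males and control males, and these mice received no virus. In the floxed experiment every mouse was stressed and carried the Dnmt3a2lox/2lox genotype, a Dnmt3a gene with flanking loxP sites, in both the Cre and the GFP groups. Its groups were AAV-CRE females, AAV-GFP females, AAV-CRE males and AAV-GFP males, where AAV is an adeno-associated virus that delivers Cre recombinase or the fluorescent protein GFP. The floxed experiment therefore holds no unstressed mice, and the wild-type experiment holds no virus. The protocol gives 4 pooled mice for each library, whereas the design text gives 3 mice for each group, and the sources used here do not settle this. In either case n counts libraries, and with pooling the spread between single mice is not seen. The protocol names dorsal striatum beside nucleus accumbens for the punches, and neither the promoter of the virus nor the age of the mice is given in the sources used here.

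Spiny neurons receive dopamine from the midbrain and glutamate from the cortex, thalamus, hippocampus and amygdala, and they send inhibitory output to the pallidum and midbrain. In direct pathway cells the dopamine receptor Drd1 couples through the G protein subunit Gnal and the gamma subunit Gng7 to adenylyl cyclase Adcy5, which makes cAMP, and in indirect pathway cells Drd2 lowers the activity of the same cyclase. Protein kinase A then phosphorylates DARPP-32, the product of Ppp1r1b, which inhibits protein phosphatase 1, while the phosphodiesterases of the set break cyclic nucleotides down. The remaining genes of the set encode regulators of G proteins, calcium and inositol phosphate signalling proteins, synaptic proteins and the transcription factors that specify these cells during development.

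Total counts per library were 7116123 to 12145551 in the wild-type and 28132563 to 59829070 in the floxed experiment. The dopamine receptor genes that define the 2 kinds of spiny neuron were present in every library, with 138 to 335 CPM (counts scaled to library size with TMM factors) of Drd1 and 93.2 to 352 CPM of Drd2. Dnmt3a, the DNA methyltransferase targeted by Cre, had 155, 150.4 and 139.8 CPM in Cre females, against 162, 169 and 155 CPM in GFP females. It had 143, 137 and 138 CPM in Cre males, against 182, 164 and 171 CPM in GFP males. The counts are of the whole gene, so transcripts that lack the deleted part are counted too. The log2 fold change of Dnmt3a was -0.30 (SE 0.06) in males, with an adjusted p = 0.0149 in edgeR's quasi-likelihood test over all genes (0.0414 without the library Cre male 2), and -0.12 (SE 0.06) in females, with an adjusted p = 0.829. The library Cre male 2 stood apart from the other 11 floxed libraries. Taking each gene's log2 CPM minus its mean over the 12 libraries, the median over the 33 genes was -0.72 in Cre male 2 and between -0.07 and 0.24 in the others. In the same library 12 choroid plexus and ependymal markers, genes of the tissue that makes cerebrospinal fluid, summed to 2112 CPM, against 56.0 to 189 CPM in the other floxed libraries. None of these 12 markers was at 0 counts in any floxed library. A list of 15 markers of cortical and other excitatory neurons summed to 834, 862 and 427 CPM in Cre males, against 155, 175 and 184 CPM in GFP males and 168 to 222 CPM in floxed females.

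The 250 bases before the annotated starts of Pde10a and Rgs9 are given 5′ to 3′ on the gene's strand, from RefSeq on build GRCm38.p6. These 2 genes had the smallest unadjusted p of the set for stress in each sex in edgeR, and neither passed. Each CpG, the dinucleotide at which DNA methyltransferases act, is in capitals. The libraries measure RNA and hold no measure of methylation. Pde10a has 2 annotated starts in that table, on the plus strand at chr17:8801495-8801744 and chr17:8849735-8849984, and Rgs9 has 1, on the minus strand at chr11:109298182-109298431.
Pde10a, upstream start: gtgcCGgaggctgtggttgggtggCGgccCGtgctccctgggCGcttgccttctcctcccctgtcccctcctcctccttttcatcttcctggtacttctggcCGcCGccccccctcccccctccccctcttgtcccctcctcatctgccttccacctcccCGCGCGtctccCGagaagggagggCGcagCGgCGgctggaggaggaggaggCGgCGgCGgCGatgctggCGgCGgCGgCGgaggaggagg
Pde10a, downstream start: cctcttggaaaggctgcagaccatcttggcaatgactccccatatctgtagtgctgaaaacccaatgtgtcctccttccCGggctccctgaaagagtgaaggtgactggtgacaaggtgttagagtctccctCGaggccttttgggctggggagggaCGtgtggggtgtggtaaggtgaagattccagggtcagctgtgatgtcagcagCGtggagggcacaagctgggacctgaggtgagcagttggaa
Rgs9: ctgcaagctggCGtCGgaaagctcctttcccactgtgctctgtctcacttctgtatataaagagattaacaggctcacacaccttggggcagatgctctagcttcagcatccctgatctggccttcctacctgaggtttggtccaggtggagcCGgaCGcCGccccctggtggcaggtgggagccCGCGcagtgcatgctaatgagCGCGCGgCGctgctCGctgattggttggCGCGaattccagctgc
The upstream start of Pde10a held 21 CpG, the downstream start 4, and the Rgs9 window 14. RefSeq promoters were found for 25 of the 33 genes, 57 windows in all. These windows held a median of 12 CpG (range 0 to 38), against a median of 6 over all 32851 windows in the table, which came from 27025 genes. Several starts were listed for 13 of the 33 genes, and some of their windows overlap, so the 57 windows are not independent. Windows with at least 10 CpG made up 56.1% of the 57, against 37.8% of all windows. The letters TATAAA, searched on both strands, were in 2 of the 57 windows, among them that of Rgs9, and in 12.4% of all windows. These are descriptions of the letters in the windows, and the builds named for the counts, NCBIM37 and mm9, are older than that of the windows.

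Levels per length are given as RPKM, the scaled CPM divided by the exon length in kilobases, and as the range of the 8 group means. Scaling was done within each experiment, so levels across the 2 experiments are set side by side without a test. The group means stood between the percentiles 52.3 and 99.8 of the protein-coding genes tested. The cAMP genes were high: Gng7 averaged 278 to 409 RPKM, Adcy5 148 to 241 RPKM and Gnal, the stimulatory G protein of striatum and olfactory epithelium, 63.8 to 99.7 RPKM. Of the phosphodiesterases, the calcium- and calmodulin-activated Pde1b averaged 181 to 245 RPKM, the dual-specificity Pde10a 69.9 to 119 RPKM and the cAMP-specific Pde7b only 14.2 to 19.9 RPKM. Ppp1r1b averaged 234 to 365 RPKM. The other genes of phosphatases and their regulators were lower: Ptpn5, the striatal-enriched tyrosine phosphatase STEP, averaged 84.6 to 119 RPKM, the cAMP-regulated phosphoproteins Arpp21 and Arpp19 averaged 68.0 to 96.5 RPKM and 64.7 to 87.2 RPKM, and Strn, a scaffold of protein phosphatase 2A, averaged 26.3 to 42.3 RPKM.

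Among regulators of G proteins, Rasd2, the striatal small G protein Rhes, averaged 99.9 to 175 RPKM, and Rap1gap, which switches off Rap1, averaged 75.8 to 109 RPKM. Rgs9, which speeds the shut-off of G protein signals, averaged 56.4 to 77.6 RPKM, and Rasgrp2, an exchange factor that activates Rap1, 9.08 to 13.5 RPKM. The 2 receptors were at the low end, with Cnr1, the CB1 cannabinoid receptor, at 12.5 to 23.9 RPKM and the orphan receptor Gpr149 at 5.96 to 8.38 RPKM. Hpca, the calcium sensor hippocalcin, averaged 260.5 to 402 RPKM, Itpka, which phosphorylates inositol trisphosphate, 52.0 to 73.1 RPKM, and Itpr1, the receptor for inositol trisphosphate, 46.0 to 77.2 RPKM. The transcription factors were lower: Meis2 averaged 32.9 to 50.9 RPKM, Bcl11b (Ctip2) 32.003 to 41.0 RPKM, the retinoic acid receptor Rarb 22.1 to 31.3 RPKM, Foxp1 15.6 to 25.8 RPKM and Foxp2 6.00 to 10.03 RPKM.

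The sodium channel subunit Scn4b averaged 108 to 194 RPKM, Syndig1l 32.4 to 69.9 RPKM, the synaptic scaffold Anks1b 23.95 to 33.2 RPKM and Actn2, an actin cross-linker, 15.04 to 27.9 RPKM. The last role group held Dclk3, a doublecortin-like kinase, at 64.6 to 88.1 RPKM, the membrane protein Tmem158 at 48.2 to 103 RPKM, the secreted proteoglycan Spock3 at 42.4 to 55.1 RPKM and Lrrc10b at 14.7 to 22.2 RPKM. The lowest mean of the 8 groups was that of Cre males for 28 of the 33 genes, but for 9 when Cre male 2 was left out of the mean. The exceptions with all libraries were Rasgrp2, Rap1gap, Cnr1, Itpka and Bcl11b. The coefficient of variation between libraries had a median over the genes of 27.5% in Cre males and 5.89% in GFP males, and of 10.8% in Cre females and 9.18% in GFP females. For 8 of the genes, among them Ppp1r1b, Gnal, Itpr1 and Hpca, exons overlap an annotated gene on the other strand. Whether reads were counted by strand is not given in the sources used here, so the count of such a gene can hold reads of its neighbour.

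**Figure D1:**
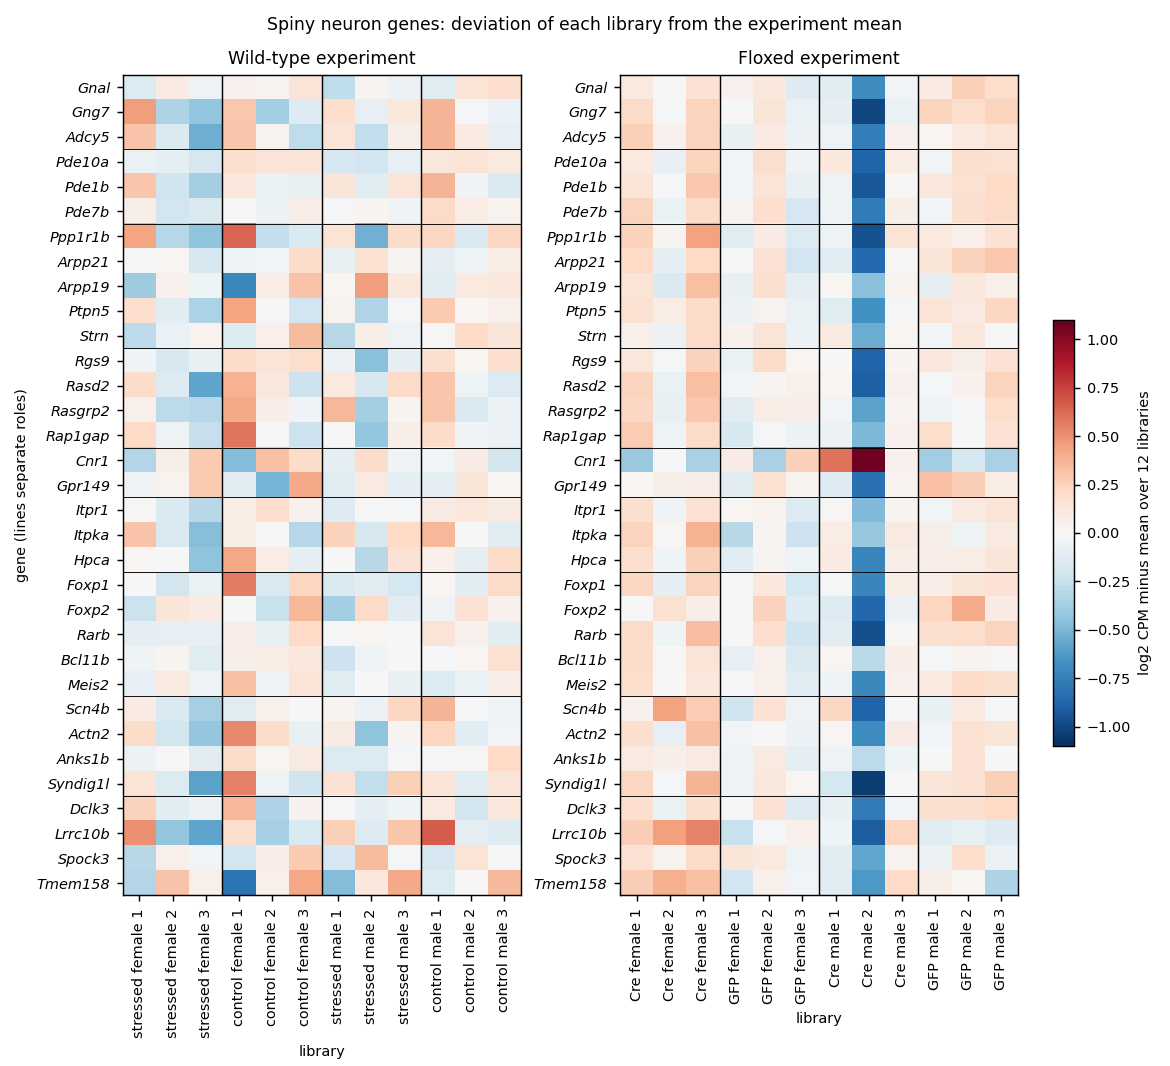
Heatmap of the 33 spiny neuron genes (rows, grouped by role) in the 12 wild-type and 12 floxed libraries (columns). Colour gives log2 CPM minus the gene's mean over the 12 libraries of its experiment, red above and blue below. The column Cre male 2 is blue for 32 genes, with a median of -0.72, and red for Cnr1.

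In the wild-type experiment the libraries with replicate number 1 stood together in all 4 groups. Gng7, Adcy5, Ptpn5, Rasgrp2, Itpka and Actn2 had their highest value of each group in the library numbered 1, and Arpp19, Strn, Spock3 and Tmem158 their lowest. This makes 6 and 4 of the 33 genes, against 14.1% and 14.2% of all genes tested. The longest transcripts of the 6 genes had a median GC content of 55.8% (range 50.1% to 61.1%), and those of the 4 genes 42.7% (range 37.3% to 63.8%). The median was 50.1% over the 33 genes and 49.0% over protein-coding genes. Tmem158, 1 of the 4, had the 63.8%, the highest of the 33.

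The wild-type experiment asks how the nucleus accumbens of each sex differs after stress. Pde10a and Rgs9 were lower in stressed than in control mice of both sexes, with no overlap between libraries, by 0.27 to 0.33 on the log2 scale. Stressed libraries were lower with no overlap for 2.58% of all genes in females and 4.24% in males. The share of all genes with this in both sexes at once was not counted. No spiny neuron gene passed the test over all genes. Pde10a, whose product degrades cAMP and cGMP in spiny neurons, had 1303, 1284 and 1211 CPM in stressed females, against 1548, 1514 and 1517 CPM in control females. In males it had 1207, 1189 and 1292 CPM with stress, against 1496, 1521 and 1476 CPM in controls. Each of the 6 stressed libraries lay below each of the 6 control libraries, and the share of all genes with this order was not counted. The log2 fold change was -0.27 (SE 0.10) in females and -0.28 (SE 0.10) in males, with unadjusted p-values of 0.0144 and 0.0106 in edgeR's quasi-likelihood test and adjusted p = 0.9999 in both.

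Rgs9 had 422, 386 and 411 CPM in stressed females, against 505, 483 and 499.8 CPM in control females. In males it had 417, 316 and 405 CPM with stress, against 492, 443 and 496 CPM in controls. Its groups did not overlap in either sex, and stressed male 2 was the lowest library. Its log2 fold change was -0.29 (SE 0.12) in females and -0.33 (SE 0.12) in males, with unadjusted p-values of 0.0326 and 0.0164 in edgeR and adjusted p = 0.9999 in both. Itpr1, the calcium release channel of the endoplasmic reticulum, had 1327, 1179 and 1062 CPM in stressed females, against 1373, 1494 and 1358 CPM in control females, and in males 1187, 1307 and 1300.1 CPM with stress, against 1402, 1433 and 1408 CPM in controls. It too had no overlap in either sex, with log2 fold changes of -0.24 (SE 0.11) in females and -0.16 (SE 0.11) in males, and unadjusted p-values of 0.0453 and 0.168 in edgeR. Exons of Itpr1 overlap genes on the other strand.

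**Figure D2:**
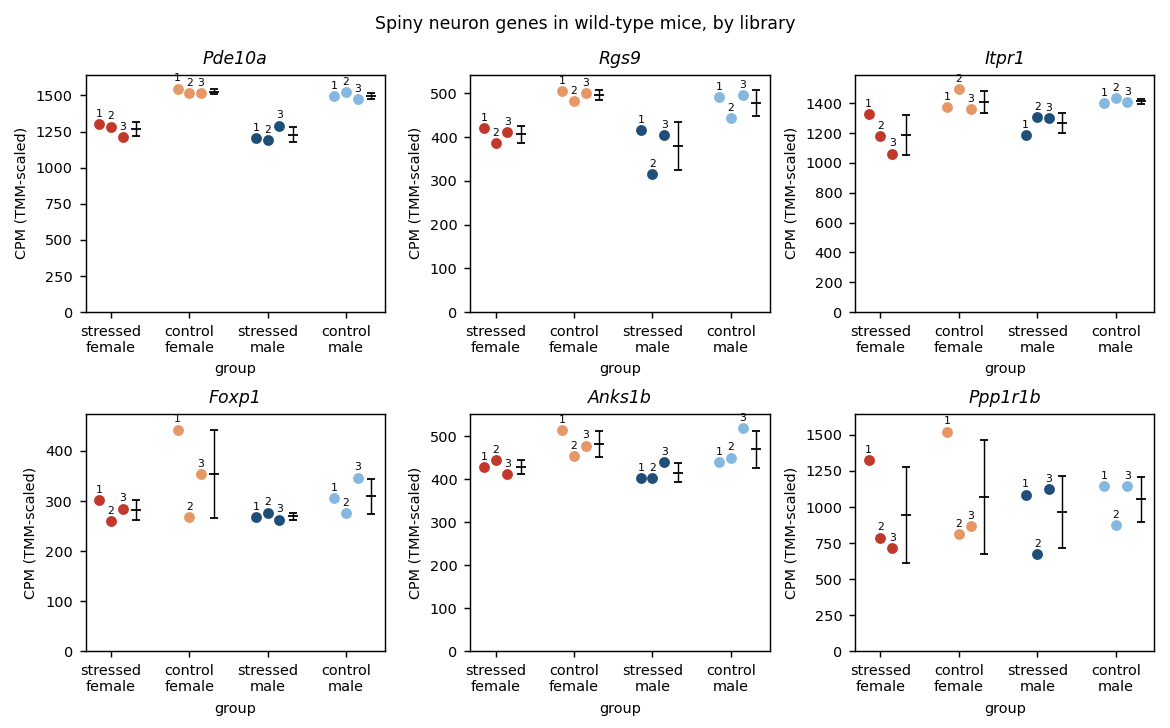
CPM of 6 spiny neuron genes in each wild-type library (points, numbered by replicate), with mean ± SD beside each group of 3. Pde10a, Rgs9 and Itpr1 lie lower in every stressed library than in the control libraries of the same sex, whereas the stressed and control libraries of Ppp1r1b overlap as groups.

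In females, 0 of 33 genes were called at an adjusted p below 0.05, and 0% of all 15249 genes were. At an unadjusted p below 0.05 there were 3 of 33, Pde10a, Rgs9 and Itpr1, against 1.68% of all genes, and DESeq2 called 0 of the 33. Next in order of p, and not passing, came Foxp1 with a log2 fold change of -0.33 (SE 0.16), Actn2 with -0.36 (SE 0.20), Rasgrp2 with -0.33 (SE 0.20), Hpca with -0.28 (SE 0.17) and Anks1b with -0.17 (SE 0.11). Stressed libraries were lower with no overlap for 6 of the 33 genes, Pde10a, Rgs9, Itpr1, Rarb, Bcl11b and Anks1b, against 2.58% of all genes, and higher for 0, against 2.72%. The log2 fold change was negative for 30 of the 33, with a median of -0.16, against 51.3% negative and a median of -0.01 over all genes tested. The exceptions were Gpr149, Tmem158 and Lrrc10b, and the fold changes ranged from -0.36 to 0.12. Without the library control female 1 there were 23 negative genes and 1 with an unadjusted p below 0.05, without stressed female 2 there were 27 and 1, and without stressed female 3 there were 25 and 0. The median was -0.10 without stressed female 3 and -0.25 without stressed female 1, with 5 genes at an unadjusted p below 0.05 in the second case. For these fits the share of all genes below 0.05 was not counted.

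Stressed and control females with the same number deviated together, and 17 of the 33 genes were lower with stress in each of the 3 numbered pairs, against 13.6% of all genes. Ppp1r1b was among them although its groups overlapped, with 1324, 788 and 718 CPM in stressed females 1, 2 and 3, against 1521, 814 and 870.0 CPM in control females 1, 2 and 3. Its log2 fold change was -0.18 (SE 0.28), and it did not pass. Hpca, Ptpn5, Rap1gap, Rasgrp2 and Actn2 were other genes lower in each pair with overlap between the groups.

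Of the 13 excitatory neuron markers tested in this experiment, 10 had negative fold changes in stressed females, with a median of -1.01, and none was called. They summed to 251, 280 and 267 CPM in stressed females, against 323, 401 and 253 CPM in control females, and of the listed markers Neurod1 was at 0 counts in stressed female 1. With their score as a covariate 30 of the 33 spiny neuron genes were negative, with a median of -0.24. Choroid plexus markers were positive in 10 of 11 and summed to 58.5, 478 and 473 CPM in stressed females, against 62.1, 588 and 46.3 CPM in control females. Folr1, Kcne2 and Slc4a5 were at 0 counts in stressed female 1, Aqp1 in control female 1, and Folr1 and Calml4 in control female 3. Endothelial markers were negative in 9 of 10 in stressed females, with a median of -0.15, and none was called. The part of the marked cells in the lower values of the spiny neuron genes was not tested.

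In males, 0 of 33 genes were called, against 0.00656% of all genes, and DESeq2 called 0 of the 33. Pde10a and Rgs9 were the 2 of 33 with an unadjusted p below 0.05, against 2.81% of all genes. After them came Anks1b with a log2 fold change of -0.18 (SE 0.11), Itpr1, Strn with -0.22 (SE 0.15), Gnal with -0.17 (SE 0.13), Bcl11b with -0.15 (SE 0.11) and Foxp1 with -0.20 (SE 0.16), none of which passed. Stressed libraries were lower with no overlap for 4 of the 33 genes, Pde10a, Pde7b, Rgs9 and Itpr1, against 4.24% of all genes, and higher for 0, against 3.67%. The fold change was negative for 26 of the 33, with a median of -0.07, against 50.3% negative over all genes. The other 7 were Arpp19, Arpp21, Spock3, Cnr1, Itpka, Rasd2 and Syndig1l, and the range was -0.33 to 0.17. The median moved to -0.13 without control male 2, -0.12 without stressed male 3 and -0.04 without stressed male 2. Of the choroid plexus markers 11 were tested, and all had negative fold changes in males, with a median of -2.98 on the log2 scale. They summed to 175, 87.6 and 203 CPM in stressed males, against 50.6, 1111 and 2692 CPM in control males. Of the 12 listed Kcne2, Slc4a5, Tmem212 and Calml4 were at 0 counts in control male 1. The sums of these markers overlapped between the groups. Control male 1 lay below every stressed male, and only control males 2 and 3 lay above them. With their score as a covariate 28 of the 33 spiny neuron genes were negative in males, with a median of -0.14, and the part of these markers in the values was not tested.

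Averaged over the sexes, 0 of 33 were called in edgeR, against 0.0131% of all genes, and 5 of 33 had an unadjusted p below 0.05, against 3.21%. Counts of genes below 0.05 were 2 to 5 when each library was left out, and 2 without stressed male 1, with no share of all genes counted. Pde10a had a log2 fold change of -0.28 (SE 0.07), an unadjusted p of 0.00123 and an adjusted p = 0.985 in edgeR, and it was the 1 gene of the set that DESeq2 called, against 0.0787% of all genes. Rgs9 had -0.31 (SE 0.09) and Itpr1 -0.20 (SE 0.08), and Foxp1 and Anks1b were the other 2. All 4 regulators of small G proteins and G protein signals were negative, as were the 5 transcription factors and the 3 phosphodiesterases, whereas the 2 receptors Cnr1 and Gpr149 had fold changes of 0.02 and 0.03. The difference of the stress effect between the sexes (female minus male) was called for 0 of 33 genes, against 0% of all genes, and 0 of 33 reached an unadjusted p below 0.05, against 1.19%. Rasgrp2 with a log2 difference of -0.33 (SE 0.28), Syndig1l with -0.31 (SE 0.32) and Arpp21 with -0.16 (SE 0.17) had its smallest p, and DESeq2 called 0 of the set.

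Females against males in the wild-type experiment gave 0 of 33 called genes, against 0.0393% of all genes, and 0 of 33 at an unadjusted p below 0.05, against 5.03%. DESeq2 called 0 of the set. The smallest p belonged to Scn4b, with a log2 difference of -0.17 (SE 0.11), Meis2, with 0.13 (SE 0.08), and Arpp19, with -0.21 (SE 0.16). The median of the 33 was -0.02, with 20 negative.

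Markers of each pathway and the signalling partners of the set were followed alongside. Of 9 markers of direct pathway spiny neurons tested, 7 had negative fold changes for stress averaged over the sexes, with a median of -0.07, and none was called. Drd1 had -0.04 (SE 0.11). Dnmt3a itself, which no virus targeted in these mice, had -0.07 (SE 0.11) in females and -0.16 (SE 0.11) in males. Of 10 markers of indirect pathway cells, 10 were negative, with a median of -0.17, and none was called. Drd2 had -0.21 (SE 0.15), and Gprin3, a G protein-regulated neurite protein, had -0.34 (SE 0.10) with an unadjusted p of 0.00574. Of 44 tested partners of cAMP, protein kinase A and DARPP-32, 21 were negative, with a median of 0.01, and none was called. Gnas, the widely expressed stimulatory G protein, had the smallest p there, with a log2 fold change of 0.37 (SE 0.13). Fewer spiny neurons in a punch and less RNA of these genes per cell cannot be told apart in these bulk libraries.

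The floxed experiment asks what the delivery of Cre to mice with a floxed Dnmt3a gene, all of them stressed, changes in each sex. In males 32 of 33 spiny neuron genes were lower and Cnr1 was higher with Cre, and in females 32 of 33 were higher and Cnr1 was lower. None passed the test over all genes in edgeR in either sex. The library Cre male 2 was the lowest of the 12 floxed libraries for 32 of the 33 genes and the highest for Cnr1, and the values in males are therefore given with and without it. Its deviations from the mean ranged from -1.05 for Syndig1l to 1.07 for Cnr1, and 26 genes were below -0.5.

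Cnr1, which is expressed in spiny neurons and also in neurons of the cortex, had 150.3, 209 and 103 CPM in Cre males, against 76.4, 87.1 and 77.7 CPM in GFP males. All 3 Cre libraries lay above the GFP libraries. In females it had 74.9, 97.9 and 77.9 CPM with Cre, against 106, 77.9 and 119.5 CPM with GFP, and the groups overlapped. Its log2 fold change was 0.94 (SE 0.24) in males, with adjusted p = 0.0532 in edgeR, and -0.28 (SE 0.24) in females, with adjusted p = 0.890. Leaving out Cre male 2 gave 0.65 (SE 0.21), adjusted p = 0.148. With the excitatory neuron score as a covariate it was 0.15 (SE 0.59), and with the choroid plexus score 0.29 (SE 0.18). Both scores were bound up with the Cre males, as set out below, so these fits cannot separate Cre from marker content.

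Ptpn5 had 531, 367 and 574 CPM in Cre males, against 648, 622 and 681 CPM in GFP males. In females it had 655, 615 and 674 CPM with Cre, against 556, 597 and 555 CPM with GFP. The groups did not overlap in either sex, Cre being lower in males and higher in females. Its log2 fold change was -0.41 (SE 0.13) in males, with adjusted p = 0.0867 in edgeR, and 0.19 (SE 0.13) in females, with adjusted p = 0.882. In males the value was -0.24 (SE 0.07), adjusted p = 0.0891, without Cre male 2.

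Gng7 had 1235, 662 and 1258 CPM in Cre males, against 1566, 1513 and 1568 CPM in GFP males. The 3 GFP libraries lay close together and above all Cre libraries. The log2 fold change was -0.56 (SE 0.19), adjusted p = 0.117 in edgeR, and without Cre male 2 it was -0.32 (SE 0.09), adjusted p = 0.0838. Gnal had 783, 528 and 829 CPM in Cre males, against 900.3, 1019 and 967 CPM in GFP males, again with no overlap. Its log2 fold change was -0.43 (SE 0.14), adjusted p = 0.0948 in edgeR, and without Cre male 2 it was -0.26 (SE 0.09), adjusted p = 0.142. Adcy5, the cyclase of the same pathway, overlapped between the groups, with a fold change of -0.31 (SE 0.16), and of -0.10 (SE 0.08) without Cre male 2.

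Foxp2, a forkhead factor of striatal projection neurons, had 111, 67.1 and 117 CPM in Cre males, against 144, 162 and 130.02 CPM in GFP males, and a log2 fold change of -0.57 (SE 0.18). Gpr149 had 27.8, 17.4 and 31.5 CPM, against 38.6, 36.9 and 32.4 CPM, and -0.50 (SE 0.18). Dclk3 had 219, 136 and 227 CPM, against 263, 262 and 269.5 CPM, and -0.45 (SE 0.16). The groups of these 3 genes did not overlap, and Gpr149 in Cre male 3 lay just under GFP male 3. Arpp21 had 1317, 791 and 1449 CPM, against 1575, 1713 and 1759 CPM, and -0.50 (SE 0.19). Without Cre male 2 these 4 fold changes were -0.36 (SE 0.12) for Foxp2, -0.28 (SE 0.09) for Gpr149, -0.25 (SE 0.09) for Dclk3 and -0.29 (SE 0.12) for Arpp21, and none passed.

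**Figure D3:**
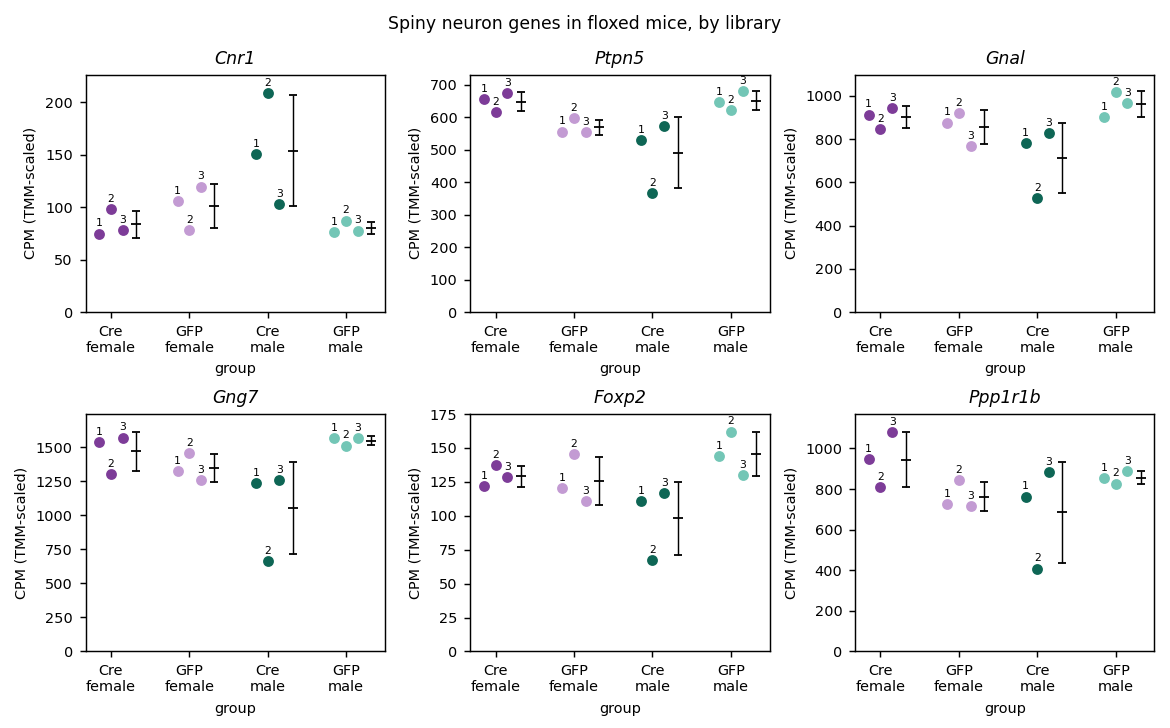
CPM of 6 spiny neuron genes in each floxed library (points, numbered by replicate), with mean ± SD beside each group of 3. Cre male 2 is the highest library for Cnr1 and the lowest for the other 5 genes, and Cre males 1 and 3 lie below all GFP males for Ptpn5, Gnal, Gng7 and Foxp2.

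In males, 0 of 33 genes were called in edgeR, against 4.96% of all 17597 genes. DESeq2 called 8 of them, against 10.3% of all genes, with Gnal, Gng7, Arpp21, Ptpn5, Gpr149, Foxp2 and Dclk3 lower and Cnr1 higher. At an unadjusted p below 0.05 there were 13 of 33 in edgeR, against 24.8% of all genes. Cre libraries were lower with no overlap for 13 of the 33 genes, against 14.7% of all genes. These were Gnal, Gng7, Pde1b, Arpp21, Ptpn5, Rgs9, Gpr149, Foxp2, Rarb, Meis2, Anks1b, Syndig1l and Dclk3. They were higher with no overlap for 1, Cnr1, against 14.7% of all genes. The 33 fold changes ranged from -0.57 to 0.94, with a median of -0.30, against a median of 0.00 and 49.1% negative over all genes tested. Without Cre male 2 the median was -0.09, 26 were negative, 10 had an unadjusted p below 0.05 and 0 were called. Without Cre male 3 the median was -0.44, 20 had an unadjusted p below 0.05 and 4 were called, against 7.29% of all genes, Gnal, Ptpn5 and Gpr149 lower and Cnr1 higher. The count below 0.05 was 8 without each GFP male. For these fits with a library left out the share of all genes at an unadjusted p below 0.05 was not counted.

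By role, the 3 cAMP and G protein genes had a median log2 fold change of -0.43 in Cre males, the 5 transcription factors -0.36, the 3 phosphodiesterases -0.33 and the 5 phosphatase genes -0.32. The median was -0.29 in the 4 regulators of small G proteins and G protein signals, -0.22 in the 4 channel, cytoskeletal and scaffold genes, -0.20 in the 3 calcium and inositol phosphate genes and -0.15 in the last group of 4. With Cre male 2 left out, the median was -0.26 in the cAMP and G protein genes, -0.17 in the transcription factors and -0.12 in the phosphodiesterases, and between -0.08 and 0.03 in the remaining 5 of these roles. Ppp1r1b, Pde10a and Hpca overlapped between the groups. Ppp1r1b had 763, 409 and 883 CPM in Cre males, against 856, 827 and 887 CPM in GFP males, with fold changes of -0.32 (SE 0.23) and, without Cre male 2, of -0.06 (SE 0.12). Lrrc10b, Tmem158 and Bcl11b were nearest to 0, at -0.06, -0.06 and -0.07, and Lrrc10b was at 0.21 (SE 0.11) without Cre male 2.

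**Figure D4:**
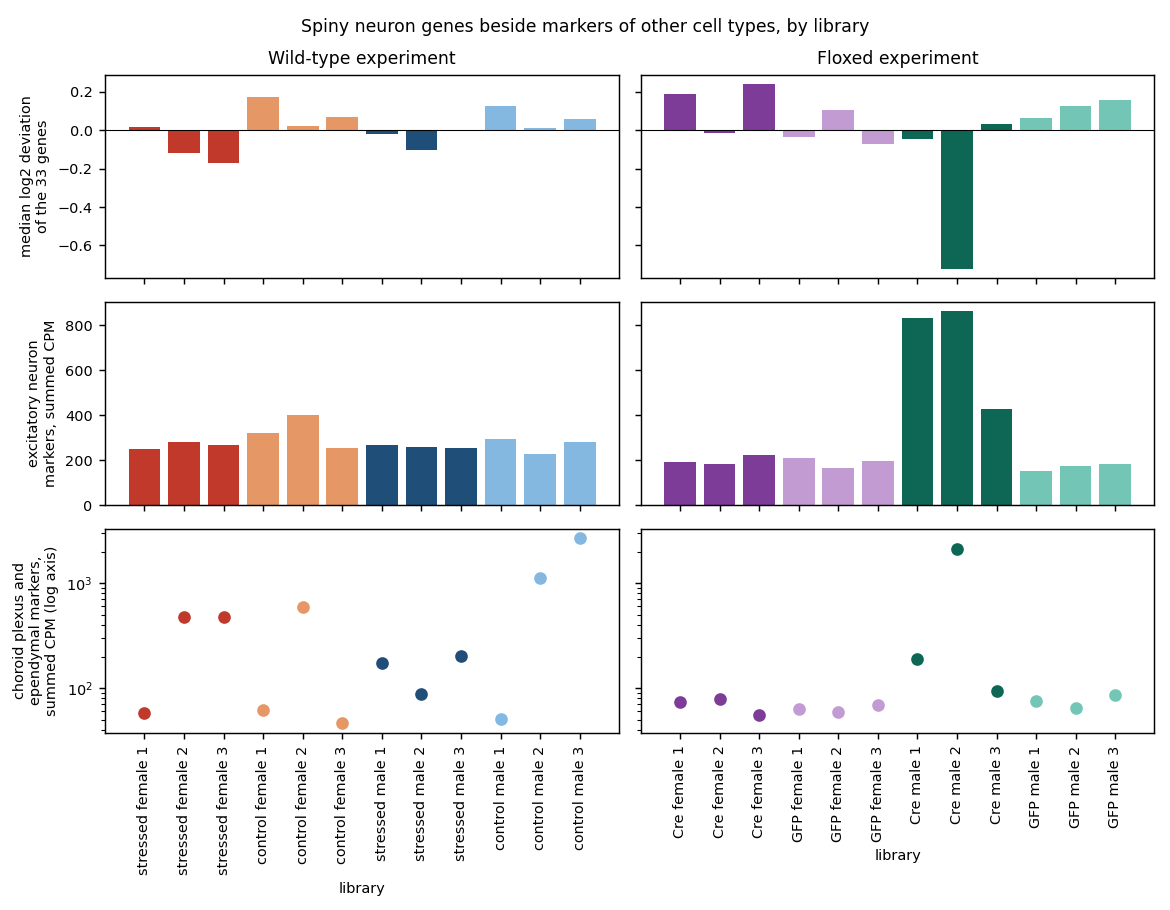
Libraries of both experiments (columns): median log2 deviation of the 33 spiny neuron genes from the experiment mean (top), summed CPM of the excitatory neuron markers tested (middle; 13 markers for wild-type and 15 for floxed libraries), and summed CPM of the choroid plexus and ependymal markers tested (bottom, log axis; 11 and 12 markers). Bars and points each stand for 1 library. Cre male 2 is lowest at the top, at -0.72, and highest at the bottom of the floxed libraries, at 2112 CPM, while all 3 Cre males are high in the middle.

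Markers of other cells moved with the male groups. Of the 15 excitatory neuron markers tested, 12 were called higher in Cre males and 14 had positive fold changes, with a median of 3.84 on the log2 scale. Slc17a7, which loads glutamate into synaptic vesicles of cortical neurons, had 428, 408 and 168 CPM in Cre males, against 1.29, 2.76 and 15.3 CPM in GFP males, and the marker Neurod1 was at 0 counts in GFP male 1 alone of the floxed libraries. Of the 12 choroid plexus markers, 11 had positive fold changes with a median of 2.73, and they summed to 189, 2112 and 93.3 CPM in Cre males, against 75.6, 64.3 and 85.5 CPM in GFP males. When Cre male 2 was left out, 6 of the 15 were called higher and 14 were positive, with a median of 3.62, and 9 of the 12 choroid plexus markers were positive, with a median of 0.61. With the excitatory neuron score as a covariate, 18 of the 33 spiny neuron genes were negative, with a median of -0.02. With the choroid plexus score 8 were negative, with a median of 0.13. The excitatory neuron score was high in all 3 Cre males, and the choroid plexus score was set mostly by Cre male 2. These fits therefore cannot tell an effect of Cre from the content of the marked cells. Oligodendrocyte markers were positive in 10 of 10, with a median of 0.25, and none was called; 6 of 10 were positive, with a median of 0.01, when Cre male 2 was left out. Microglia markers were positive in 10 of 10, with a median of 0.23, or 0.44 without Cre male 2, and none was called. Of 10 markers of striatal interneurons, 6 were positive and 4 negative, with a median of 0.39, and 3 were called higher, Sst with 0.54 (SE 0.07), Npy with 0.44 (SE 0.09) and Vip with 3.07 (SE 0.47), all neuropeptides that are also made in the cortex. The part of the marked cells in the lower values of the spiny neuron genes was not tested.

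In females, 0 of 33 genes were called, against 0% of all genes, and 1 of 33 had an unadjusted p below 0.05, against 5.96%. DESeq2 called 0 of the set. That gene was Itpka, a neuronal kinase that binds actin in dendritic spines, with 125, 107 and 138 CPM in Cre females, against 85.4, 108 and 90.4 CPM in GFP females. Its log2 fold change was 0.38 (SE 0.14), with adjusted p = 0.783 in edgeR, and GFP female 2 overlapped with the Cre libraries. Cre libraries were higher with no overlap for 3 of the 33, Ptpn5, Lrrc10b and Tmem158, against 6.5% of all genes, and lower for 0, against 5.04%. Lrrc10b had 41.7, 47.3 and 50.7 CPM in Cre females, against 29.2, 34.2 and 36.1 CPM in GFP females, and a log2 fold change of 0.49 (SE 0.22). Tmem158 had 109, 119 and 114 CPM, against 78.5, 94.3 and 89.1 CPM, and 0.39 (SE 0.18).

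Bcl11b with 0.18 (SE 0.09), Rap1gap with 0.23 (SE 0.13), Ppp1r1b with 0.31 (SE 0.23) and Scn4b with 0.30 (SE 0.23) followed in order of p, and none of them passed. The fold change was positive for 32 of the 33 genes, with a median of 0.14, against a median of 0.00 and 49.9% negative over all genes. Median deviations were 0.19, -0.02 and 0.24 in Cre females 1, 2 and 3, against -0.03, 0.11 and -0.07 in GFP females 1, 2 and 3, so that Cre female 2 lay among the GFP libraries. The median fold change was 0.08 without Cre female 3, 0.09 without GFP female 3, 0.20 without GFP female 2 and 0.22 without Cre female 2. The count of genes with an unadjusted p below 0.05 was 10 without Cre male 2, whose spread enters the shared fit. It was 7 with only the female groups, and 0 without Cre female 1, Cre female 3, GFP female 1 or GFP female 3. No share of all genes was counted beside these. Excitatory neuron markers summed to 191, 186 and 222 CPM in Cre females, against 210.0, 168 and 195 CPM in GFP females, and choroid plexus markers summed to 74.5, 79.4 and 56.0 CPM, against 63.0, 59.4 and 68.4 CPM. Striatal interneuron markers were negative in 7 of 10, with a median of -0.23 and 5 at an unadjusted p below 0.05, and endothelial markers in 9 of 10, with a median of -0.15. None of these was called, and their part in the higher values of the spiny neuron genes was not tested. Adding the score of these choroid plexus markers to the model gave a median of 0.21 and 24 of the 33 with an unadjusted p below 0.05, none of them called. That score was set mostly by Cre male 2, and the share of all genes below 0.05 was not counted in this fit.

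**Figure D5:**
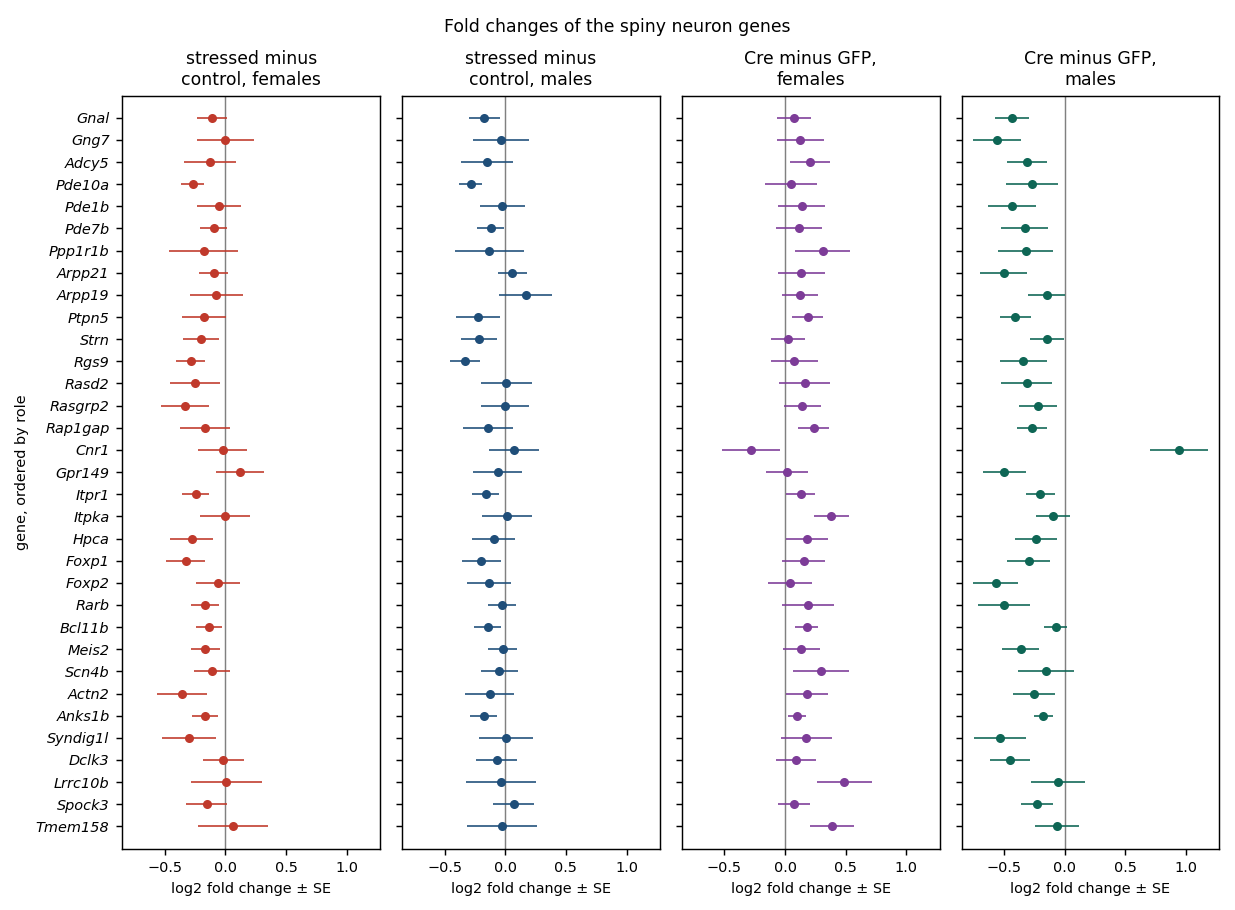
Log2 fold change ± SE of the 33 spiny neuron genes, ordered by role, for stressed minus control females and males and for Cre minus GFP females and males. Most points lie below 0 with stress (30 and 26 of 33) and with Cre in males (32 of 33), and above 0 with Cre in females (32 of 33), with Cnr1 opposite to the rest in both Cre comparisons.

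The difference of the Cre effect between the sexes (female minus male) was called in edgeR for 0 of 33 genes, against 0.0114% of all genes. At an unadjusted p below 0.05 there were 14 of 33, against 17.5% of all genes, with a median difference of 0.47 over the 33. Cnr1 had the smallest p, with a log2 difference of -1.22 (SE 0.34) and adjusted p = 0.148 in edgeR. Ptpn5 had 0.60 (SE 0.18), adjusted p = 0.163 in edgeR, and Rap1gap 0.51 (SE 0.18), adjusted p = 0.202 in edgeR. DESeq2 called 2 of the 33 for this difference, Cnr1 and Ptpn5, against 3.44% of all genes. The median difference was 0.25 and 0 were called when Cre male 2 was left out, and without Cre male 3 it was 0.61 and 2 were called, Ptpn5 and Cnr1, against 2.8% of all genes.

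Averaged over the sexes, 0 of 33 genes were called for Cre, against 1.42% of all genes, and 0 of 33 reached an unadjusted p below 0.05, against 14.2%. DESeq2 called 0 of the set. Foxp2 with -0.27 (SE 0.13), Cnr1 with 0.33 (SE 0.17) and Gpr149 with -0.24 (SE 0.12) had the smallest p. The median of the 33 was 0.03 without Cre male 2, against -0.07 with it, and Lrrc10b was then called higher, with 0.35 (SE 0.07) and adjusted p = 0.0431 in edgeR, against 1.17% of all genes. Females against males within the floxed experiment gave 0 of 33 called genes, against 0.0682% of all genes, and 0 of 33 at an unadjusted p below 0.05, against 6.68%. DESeq2 called 0 of the set here too. The smallest p belonged to Lrrc10b, with a log2 difference of 0.32 (SE 0.16), Spock3, with 0.19 (SE 0.09), and Tmem158, with 0.25 (SE 0.13). The difference was positive for 32 of 33 genes, with a median of 0.10. With Cre male 2 left out it was positive for 18 of 33, with a median of 0.01, and when the score of the choroid plexus markers was added to the model it was negative for 29 of 33, with a median of -0.09. Markers of other cells also had fold changes in this comparison. Endothelial markers were positive in 10 of 10, with a median of 0.27 and 10 at an unadjusted p below 0.05. Excitatory neuron markers were negative in 13 of 15, with a median of -1.12, and choroid plexus markers in 12 of 12, with a median of -1.104. Without Cre male 2 these medians were 0.26, -0.93 and -0.31, and 9 of 12 choroid plexus markers were negative. The excitatory neuron markers were high in Cre males, at 834, 862 and 427 CPM, but not in GFP males, at 155, 175 and 184 CPM. None of the markers of these 3 kinds was called, and their part in the values was not tested.

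The pathway-specific markers give the setting in Cre males as well. Of 9 direct pathway markers, 8 had negative fold changes, with a median of -0.38, and 7 did without Cre male 2, with a median of -0.16. Isl1, a LIM homeobox factor of direct pathway cells, was called lower, with a log2 fold change of -0.65 (SE 0.11) and adjusted p = 0.0115 in edgeR, and Eya1 was called higher, with 0.69 (SE 0.14) and adjusted p = 0.0229. When Cre male 2 was left out, Isl1 kept its call, with -0.64 (SE 0.13) and adjusted p = 0.0374 in edgeR, and Eya1 lost it, with 0.68 (SE 0.16) and adjusted p = 0.0562. Of 10 indirect pathway markers, 8 were negative, with a median of -0.24, whereas 5 of 10 were negative without Cre male 2, with a median of -0.0032. The kainate receptor subunit Grik3 was called higher, with 0.32 (SE 0.08), and not without Cre male 2, with 0.30 (SE 0.09). Drd1 had -0.44 (SE 0.20) and Drd2 had -0.38 (SE 0.23), and neither passed. Their values without Cre male 2 were -0.21 (SE 0.11) and -0.12 (SE 0.12). Of 44 tested partners of cAMP, protein kinase A and DARPP-32, 25 were negative, with a median of -0.02. Adcy1, a calcium-stimulated cyclase abundant in cortex, was called higher, with 0.81 (SE 0.13), and Prkar2b, a regulatory subunit of protein kinase A, was called lower, with -0.44 (SE 0.11). Adcy1 kept its call without Cre male 2, with 0.79 (SE 0.15), and Prkar2b lost it, with -0.33 (SE 0.09). In females none of the 3 lists held a called gene, and their medians were 0.14, 0.12 and 0.02 for the direct pathway, the indirect pathway and the partners. Drd1 had 0.15 (SE 0.20) and Drd2 0.20 (SE 0.23) in females.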

How the data were processed

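RNA sequencing libraries of mouse nucleus accumbens were analysed from the deposited table of raw counts per Ensembl gene. The authors deposited whole-number counts with no scaling, per the file headers and values. The submitters' processing notes list Bowtie2 2.1.0, TopHat2 2.0.9, HTSeq 0.6.0 and the builds NCBIM37 and mm9, and the use of strand in counting is not given in the sources used here. Symbols, exon lengths and overlaps came from GENCODE M21, by Ensembl ID (32919 IDs matched, 5072 did not).

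Each experiment was fitted on its own in R 4.3.3 with edgeR 4.0.16 (filterByExpr, TMM factors, a robust quasi-likelihood model with 4 group means). Genes were called at a Benjamini-Hochberg adjusted p below 0.05 over all genes tested. With 3 libraries a group, p-values measure the spread between pooled libraries. A count of genes at an unadjusted p below 0.05 outside the main fit has no share over all genes beside it. Alternatives were DESeq2 1.42.0, RLE factors, no filter, the replicate block, only the groups compared, an excitatory neuron or choroid plexus score as covariate, and leaving out each library. A further 2 settings were chosen after seeing the data: the groups compared with the replicate block, and no library numbered 1. Group means without Cre male 2 and counts over the numbered pairs of females were also chosen after seeing the data. The scripts were tested on simulated data.

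The genes followed and the lists were chosen with earlier results of these data known. Named are all 33 genes with their levels, the called genes or, where fewer than 8 were called, the 8 of smallest p in each single-sex comparison and the 3 of smallest p in the others, Dnmt3a, Drd1 and Drd2, and genes of smallest p of the described lists. Other features named were chosen after their values were seen. Stressed and control females of the same number deviated together (correlations of their deviations 0.577, 0.334 and 0.500 for numbers 1, 2 and 3). In males these correlations were lower (0.316, 0.222 and 0.087), but each was again highest with its own number. Stressed females also deviated with control males of the same number (0.598, 0.392 and 0.227), each highest with its own number. With stressed males this held for number 1 (0.431) but not for 2 and 3. The numbers were thus not particular to stressed and control females. Genes lower in each numbered pair were counted in females only. Between Cre and GFP libraries of the same number the correlations were 0.073, -0.138 and -0.453 in females, and -0.113, 0.045 and 0.095 in males.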

Additional observations from a re-analysis of the deposited data

Results flagged for a closer look

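Ptpn5, the striatal-enriched tyrosine phosphatase, was the 1 gene of the set whose libraries moved fully apart in opposite directions in the 2 sexes, against 1.42% of all genes. With Cre its libraries lay above all GFP libraries in females and below all GFP libraries in males. The difference between the sexes was tested: the log2 difference, female minus male, was 0.60 (SE 0.18), with adjusted p = 0.163 in edgeR, and so it did not pass over all genes. The value in males was -0.41 with all libraries and -0.24 without Cre male 2.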

How the results depend on the processing

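No spiny neuron gene was called in any of the 10 comparisons in edgeR, and this held in 185 of 193 recomputed counts, 0 with the replicate block in every comparison included. DESeq2 called 8 genes for Cre in males (10.3% of all genes), 2 for its difference between the sexes (3.44% of all genes) and 1 for stress averaged over the sexes (0.0787% of all genes), and the cause was not tested. Leaving out each library gave 0 to 4 called genes for Cre in males. There were 4 without Cre male 3, Gnal, Ptpn5, Cnr1 and Gpr149, against 7.29% of all genes. Cnr1 was the 1 called without GFP female 2, for which only the share with every library kept, 4.96% of all genes, is given. Without each library in turn there were 0 to 1 for Cre averaged over the sexes (1, Lrrc10b, without Cre male 2) and 0 to 2 for its difference between the sexes. The choroid plexus score as a covariate gave 3 for Cre averaged over the sexes, Ppp1r1b, Itpka and Lrrc10b, all higher, against 1.01% of all genes. With the excitatory neuron score the sign changed in 14 of the 33 genes for Cre in males, 20 for Cre averaged over the sexes and 12 for females against males in floxed mice, and with the choroid plexus score in 24, 28 and 30. Among the genes of smallest p, it changed with the excitatory neuron score for Cre in males in Foxp2 (0.0093) and Gpr149 (0.21), for Cre averaged over the sexes in Foxp2 (0.022), Cnr1 (-0.049) and Gpr149 (0.11), and for females against males in floxed mice in Tmem158 (-0.032). It changed with the choroid plexus score for Cre averaged over the sexes in Foxp2 (0.0215), Cnr1 (-0.0223) and Gpr149 (0.0261). The cause was not tested, and in males these scores cannot be told apart from the Cre group or from Cre male 2. With the replicate block, 6 of the 33 genes reached an unadjusted p below 0.05 for stress in females, against 3 without it. Where only the 2 female groups were fitted with the block, 10 did. The share of all genes below 0.05 was not counted in these 2 fits. Without the 4 libraries numbered 1, 30 genes were negative for stress in females and 20 in males. Depth was 7116123 to 12145551 counts in wild-type libraries, and the number of 3 libraries a group limits the precision of every value.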
